A study of Mus musculus with 4 samples.

Results

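Glutamate uptake and metabolism in the mouse cortex is represented here by 6 genes, Slc1a2, Slc1a3, Slc7a11, Glul, Glud1 and Slc38a3, of 21631 protein-coding genes on the autosomes and chromosome X. They were chosen by name, with earlier results of these data known. SOX2 peaks were given to a gene when the centre of the peak lay inside its RefSeq span or within 50 kb of it, whichever gene was nearest. By this rule the 6 genes held 32 of 17730 peaks in immunoprecipitated (IP) library 1, 35 of 17628 in IP library 2 and 28 of 15891 in IP library 3, which averages to 31.7 ± 3.51 peaks per library (SD, n = 3).

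The study pulled down SOX2, a transcription factor of neural stem cells and astrocytes, from chromatin of the cerebral cortex of male C57BL/6 mice aged 2 months and sequenced the DNA (ChIP-seq). There were 3 IP libraries, made with a rabbit polyclonal anti-SOX2 antibody, and 1 input library made with no antibody, which is the unselected chromatin. All 4 samples, the input among them, also carry a label for transduction with SOX2, at odds with a protocol that starts from wild-type tissue. Nothing in the labels ties the IP libraries to separate animals, so their spread may be no more than technical. Per the protocol, 0.3 g of cortex was crosslinked and sheared to 200 to 600 bp. The cortex holds many cell types, and more cells with SOX2 at a region cannot be told apart from more SOX2 there in each cell.

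Astrocytes clear the glutamate that neurons release. Transporters of the plasma membrane carry it into the cell, glutamine synthetase turns it into glutamine, and glutamine leaves the astrocyte to be taken up again by neurons, a loop known as the glutamate-glutamine cycle. Glutamate can also be oxidised in mitochondria or exchanged for cystine, which feeds the synthesis of glutathione. Slc1a2 and Slc1a3 encode the glutamate transporters of astrocytes, Slc7a11 the cystine-glutamate exchanger xCT, Glul glutamine synthetase, Glud1 the mitochondrial glutamate dehydrogenase, and Slc38a3 a transporter that releases glutamine.

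All 6 genes carried SOX2 regions found in each of the 3 IP libraries, 20 regions in all. Slc1a2 led with 7, of which 4 lay nearer to its neighbour Pamr1, and Glud1 had 4. A region here is a set of peaks that overlap by at least 1 bp. Of all protein-coding genes, 46.6% had such a region within 50 kb, 58.3% a region of at least 2 libraries and 71.8% a peak of any library, all of which held for 6 of 6 here. The strongest regions lay 37.3 kb before Slc1a2, inside its neighbour Pamr1, and inside Slc7a11. Glul had the weakest of the strongest regions per gene, and its promoter had a peak in every library.

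For 5 of the 6 genes RefSeq gives a promoter sequence of the same build (GRCm38.p6, which has the coordinates of mm10), and 3 of these promoters met a peak. They are shown because they are the places where a peak can be read against the sequence at the start of a member gene. Each line gives the 250 bases before the transcript start, 5′ to 3′ on the strand of the gene, with capitals for the bases under a peak. The promoter of Glul lies at chr1:153899679-153899928 on the plus strand, and its peak was found in all 3 libraries. That of Slc7a11 lies at chr3:50443614-50443863 on the minus strand, with peaks in IP libraries 1 and 2. That of Slc1a3 lies at chr15:8710808-8711057 on the minus strand, with a peak in IP library 2 alone.
Glul: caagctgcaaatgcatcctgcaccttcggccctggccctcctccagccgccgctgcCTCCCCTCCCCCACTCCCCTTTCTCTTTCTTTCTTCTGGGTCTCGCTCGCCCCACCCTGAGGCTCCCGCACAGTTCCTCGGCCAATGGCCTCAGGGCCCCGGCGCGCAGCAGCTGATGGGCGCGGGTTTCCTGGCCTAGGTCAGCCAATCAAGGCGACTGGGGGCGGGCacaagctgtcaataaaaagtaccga
Slc7a11: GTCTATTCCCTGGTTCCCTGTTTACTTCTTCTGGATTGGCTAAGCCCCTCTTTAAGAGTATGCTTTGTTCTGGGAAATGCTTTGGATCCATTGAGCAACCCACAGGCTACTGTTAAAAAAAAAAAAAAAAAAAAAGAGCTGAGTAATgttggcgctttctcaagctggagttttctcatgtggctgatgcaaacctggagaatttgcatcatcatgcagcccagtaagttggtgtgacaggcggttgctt
Slc1a3: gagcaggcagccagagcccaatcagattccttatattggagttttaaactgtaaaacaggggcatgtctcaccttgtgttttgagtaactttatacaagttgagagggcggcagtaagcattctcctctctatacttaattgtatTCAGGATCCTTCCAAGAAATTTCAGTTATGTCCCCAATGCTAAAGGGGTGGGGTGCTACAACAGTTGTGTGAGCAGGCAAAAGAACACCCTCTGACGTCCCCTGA

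The peaks at Glul and Slc1a3 also overlapped the RefSeq promoters of Gm38440 and Gm31340. In Glul the bases under the peak ran from 194 to 26 bases before the start, so the region lay wholly upstream of the gene and within its promoter. In Slc7a11 the bases under a peak of IP library 1 or 2 ran from at least 250 to 104 bases before the start. In Slc1a3 they ran from 105 bases before the start into the gene. The promoters, taken as 300 bases with the first 50 after the start, were searched on both strands for the SOX hexamer AACAAT, the hexamer ACAATG that overlaps it, the further SOX hexamer ACAAAG, the longer word AACAATG that joins the first pair, the longer word AACAAAG that contains the last, the POU octamer ATGCAAAT, the NFI motif TTGGC and the E-box CAGCTG. Slc7a11 held AACAAAG, and with it the ACAAAG it contains, on the strand opposite to the gene. Written CTTTGTT there, it started 188 bases before the start, under the peak of IP library 1 and outside that of IP library 2. AACAAAG was present in 5.84% of all 32619 promoters and ACAAAG in 18.7%. Slc7a11 also held the octamer, 49 bases before the start and outside both peaks, a motif of 1.75% of promoters.

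None of the 5 SOX words occurred in the promoters of Glul, Slc1a3, Slc1a2 or Glud1, which says only that these letters are not in these windows. Under the peak of Glul stood the NFI motif, written GCCAA, at 114 and 51 bases before the start, and the E-box at 85. Slc7a11 held the NFI motif at 215 bases before the start, under both of its peaks, and at 102, outside them. The promoter of Slc1a2, whose start lies 48.2 kb inside the gene span and which met no peak, held the NFI motif at 114. The sequence at the 5′ end of the Slc1a2 span was not searched. The NFI motif was present in 46.9% of all promoters and the E-box in 16.4%. Of the 1861 promoters that met a region of all 3 libraries, 34.8% held at least 1 of the 3 SOX hexamers, against 32.7% of the promoters that met none. For the words found at the members, the shares were 8.28% against 5.70% for AACAAAG, 20.8% against 18.6% for ACAAAG and 2.26% against 1.72% for the octamer. They were 56.5% against 46.3% for the NFI motif and 13.3% against 16.6% for the E-box. These differences were not tested. A letter match is not a bound site.

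Normalized tags measure how strong a peak is. They are the sequenced reads in it, scaled by the authors to a library total of 10000000. The libraries held 36330529, 32492927 and 41875666 tags. The tag thresholds in the file headers were 14, 13 and 16 tags, which correspond to 3.85, 4.00 and 3.82 normalized tags. Some listed peaks fall below these in normalized tags, with lowest values of 3.30, 3.08 and 2.87. Enrichment of a peak over the input is the authors' fold. Across the whole series 9334 regions were found in all 3 libraries, with a median of 7.63 normalized tags. Among cell type markers, 8 of 8 astrocyte markers (Slc1a2 and Slc1a3 among them), 5 of 7 neuron, 4 of 6 oligodendrocyte, 3 of 5 microglia and 3 of 4 endothelial markers had a region within 50 kb, beside the 46.6% of all genes, and none of these lists was without regions. Each region was counted whichever gene was nearest. The strongest lay nearer to another gene for Slc1a2, Aldoc, Tubb3, Slc17a7, Olig2, Mog, Aif1, P2ry12, Cx3cr1 and Cldn5. This takes in all 3 microglia markers counted. The regions are positions in the genome and not levels of expression.

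**Figure D1:**
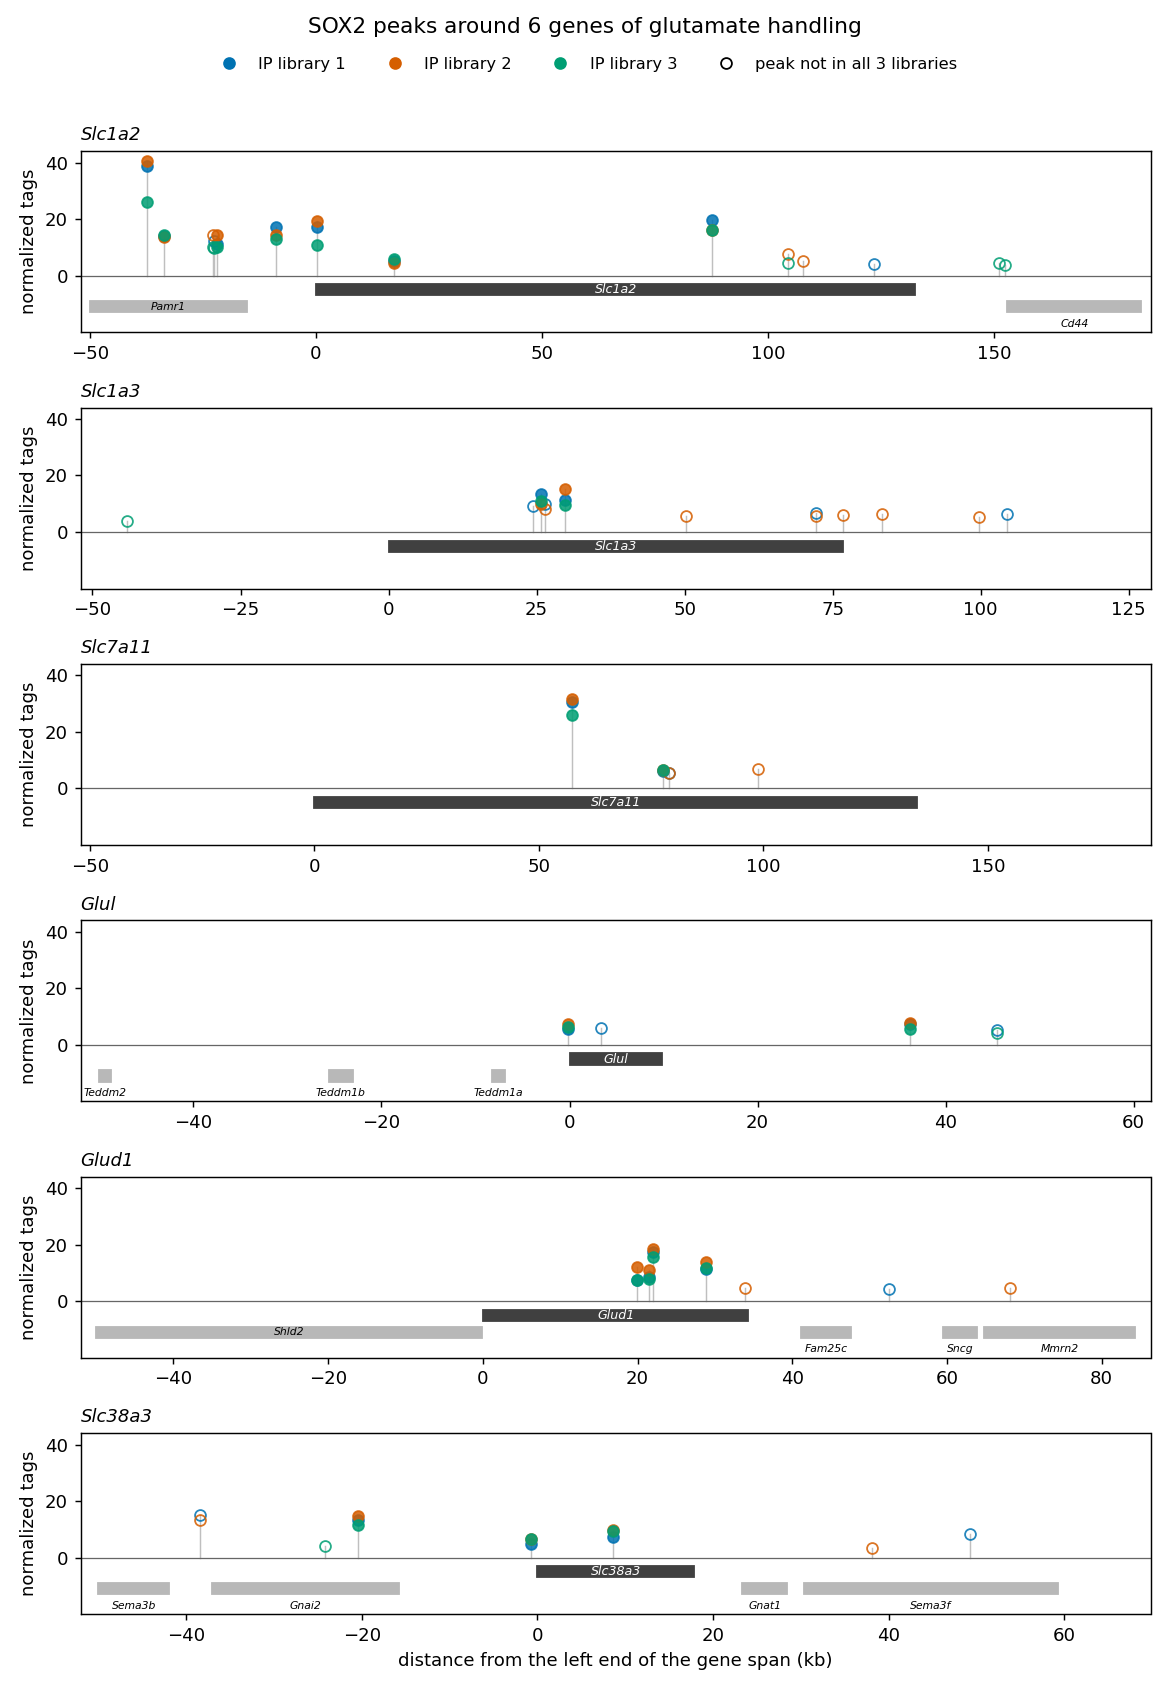
SOX2 peaks around each of the 6 genes, by distance of the region's centre from the left (lower coordinate) end of the gene span in kb (horizontal) and normalized tags of the strongest peak in each IP library (vertical). Filled points belong to regions found in all 3 libraries and open points to other peaks, dark bars are the member genes and grey bars other protein-coding genes. The highest points lie over Pamr1, left of Slc1a2, with 26.0 to 40.6 normalized tags, and inside Slc7a11.

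Slc1a2 (Gene ID 20511, chr2:102658239-102790784, plus strand), the main glutamate transporter of astrocytes, had 14 regions in its window, of which 7 were found in all 3 libraries, spread over 124.9 kb. The strongest, chr2:102620808-102621000, held 38.8, 40.6 and 26.0 normalized tags in IP libraries 1, 2 and 3. Its mean was 35.1 ± 7.96 (SD, n = 3). IP library 3 was lower than the others, and its 95% Poisson interval for counting error, 21.4 to 31.4, did not reach those of IP library 1, 32.7 to 45.8, and IP library 2, 34.0 to 48.2. IP library 3 was also lower over all its peaks, with a median of 5.25 normalized tags against 6.06 and 6.16 in IP libraries 1 and 2, and the part of this in the gap was not tested. The enrichment over the input was closer, 42.6-fold, 44.6-fold and 42.9-fold, over 3, 3 and 2 input tags. So was the authors' peak score, which caps tags per bp, at 104, 102 and 106, with a looser cap in IP library 3. The Poisson intervals take every tag as an independent count. This region stood above 99.8% of all regions of 3 libraries. It lies inside Pamr1 and 37.3 kb upstream of Slc1a2, so Pamr1 is the nearer gene. Being nearer does not tell on which gene it acts.

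A further 3 of the 7 regions also lay nearer to Pamr1 than to Slc1a2. The region 33.5 kb upstream held 14.0, 13.8 and 14.3 normalized tags, the closest agreement between libraries of the 20 regions in absolute terms, with an SD of 0.252. The region 21.9 kb upstream held 11.3, 14.5 and 10.3 tags, and both lay inside Pamr1. The region 8.83 kb upstream, which is 6.37 kb from Pamr1 and inside neither gene, held 17.3, 14.2 and 13.1 tags. All 4 upstream regions were above the series median in every library.

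The other 3 regions lay inside Slc1a2. At chr2:102658404-102658611, 0.269 kb inside the 5′ end of the gene span, the tags were 17.3, 19.4 and 11, with 57.1-fold, 63.9-fold and 36.2-fold enrichment over 1 input tag in each case. The 63.9-fold value was the highest of the 60 values of the 20 regions. Deep inside the gene, 87.6 kb from its 5′ end, a region held 19.8, 16 and 16 tags, the strongest of those for which Slc1a2 is the nearest gene (mean 17.3 ± 2.19). A region 17.2 kb inside held only 5.23, 4.31 and 5.97 tags, the weakest of the 20. The RefSeq promoter table places a start of Slc1a2 48.2 kb inside the span, and that promoter met no peak. Toward the other side of the gene, peaks of IP library 3 alone, with 4.30 and 3.82 tags, lay 18.4 and 19.8 kb downstream, nearer to Cd44, the hyaluronan receptor gene.

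Slc1a3 (Gene ID 20512, chr15:8634124-8710807, minus strand), the other astrocyte glutamate transporter, had 11 regions in its window, but only 2 were found in all 3 libraries. They lay 4.05 kb apart inside the gene. The region chr15:8659800-8659996 held 13.5, 9.85 and 11 normalized tags and the region chr15:8663831-8664072 held 11.3, 15.1 and 9.55. The libraries ranked differently at the pair of regions, with IP library 1 highest at the first and IP library 2 highest at the second. Between and beside them, a region of IP libraries 1 and 2 held 9.91 and 8.00 tags, and a peak of IP library 1 alone held 9.08. Another region of IP libraries 1 and 2 inside the gene held 6.61 and 5.85.

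Of the 11 regions of Slc1a3, 7 were found in a single library, more than at any other of the 6 genes. One of these was the promoter peak shown above, with 6.16 normalized tags in IP library 2. No other protein-coding gene was nearer to any region of this window. A stronger region lay beyond the window, 70.5 kb upstream of Slc1a3, which is still its nearest protein-coding gene, with 12.4, 18.5 and 14.3 tags.

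Slc7a11 (Gene ID 26570, chr3:50364936-50499087, minus strand), the exchanger that brings in cystine and releases glutamate, carried the second strongest region of the 6 genes and the strongest that lay inside its own gene. At chr3:50422180-50422350 the normalized tags were 30.6, 31.7 and 26.0, a mean of 29.4 ± 3.02, above 99.4% of all regions of 3 libraries. Here the counting intervals of the libraries overlapped, 25.1 to 36.8, 25.9 to 38.4 and 21.4 to 31.4. The enrichment was lower than at the strongest Slc1a2 region, 20.1-fold, 26.1-fold and 28.6-fold, over 5, 3.9 and 3 input tags (scaled to the IP library for IP library 2).

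The other region of Slc7a11 found in all libraries held 6.06, 6.46 and 6.69 tags and lay 20.2 kb from the strongest, also inside the gene. The promoter in the RefSeq table begins 55.5 kb inside the gene span. Its region, with 5.51 and 5.54 tags in IP libraries 1 and 2 and no peak in IP library 3, was of like strength to this one. A peak of IP library 2 alone held 6.77 tags. The window of 234 kb holds no other protein-coding gene.

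Glul (Gene ID 14645, chr1:153899929-153909723, plus strand), which makes glutamine from glutamate and ammonia, had 2 regions of 3 libraries, and the stronger was weaker than the strongest of each other gene. The promoter region shown above, chr1:153899735-153899903, held 5.78, 7.39 and 6.21 normalized tags, with 19.0-fold, 24.3-fold and 40.9-fold enrichment. The last fold rests on an input at the floor of 0.5 tags. The centres of its 3 peaks lay within 13 bp of each other, the closest of the 20 regions. A second region, 26.4 kb downstream of the gene and nearest to it, held 7.43, 7.69 and 5.49 tags, a mean of 6.87 ± 1.2. Both means were below the series median of 7.63. A region of IP libraries 1 and 3, 35.7 kb downstream, held 5.23 and 4.06 tags.

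Beyond the window Glul had a stronger region. It lay 68.7 kb downstream, with Glul as its nearest protein-coding gene, and held 25.3, 24.6 and 22.7 tags, above 98.4% of all regions of 3 libraries. Its enrichment was 167-fold, 81.1-fold and 18.7-fold over 0.5, 1 and 4 input tags, so the fold differed more between libraries than the IP tags. At the edge itself, the farthest member region of any library inside the 50 kb limit lay 44.2 kb from Slc1a3 with 4.06 tags in IP library 3. The nearest outside it lay 52.3 kb from Glul with 5.73 tags in IP library 3. Of regions of 3 libraries, the farthest inside was the strongest of Slc1a2 at 37.3 kb, and the nearest outside lay 52.9 kb upstream of Glul, inside Rgsl1, with 8.81, 5.23 and 4.06 tags.

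Glud1 (Gene ID 14661, chr14:34310727-34345033, plus strand), the enzyme that feeds glutamate carbon into the mitochondrial cycle, held 4 regions of 3 libraries, all inside the gene and within 8.96 kb of each other. From the 5′ side, the first, 19.9 kb into the gene, held 7.43, 12.0 and 7.40 normalized tags, and the second 8.53, 11.1 and 7.88. The third, chr14:34332676-34332845, only 0.555 kb beyond the second, was the strongest with 17.6, 18.5 and 15.5 tags (mean 17.2 ± 1.54). The fourth held 11.3, 13.8 and 11.7 tags. IP library 2 was highest at each of the 4. Single peaks beyond the gene were nearer to Fam25c, with 4.40 tags in IP library 1, and to Mmrn2, with 4.62 in IP library 2. No region met the promoter of Glud1, which with 81.0% G and C was richer in these bases than all but 0.659% of promoters, against a median of 53%. The promoter of Glul had 64.3% and those of Slc1a2, Slc1a3 and Slc7a11 had 44.7% to 45.7%.

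Slc38a3 (Gene ID 76257, chr9:107651154-107668968), through which glutamine leaves the astrocyte, had 3 regions of 3 libraries in a window that also holds Gnai2, Gnat1, Sema3b and Sema3f. The strongest, with 13.2, 14.8 and 11.5 normalized tags and 43.5-fold, 48.7-fold and 37.8-fold enrichment, lay inside Gnai2, a gene of a G protein subunit, 20.4 kb from Slc38a3. Of the regions for which Slc38a3 was nearest, one inside the gene held 7.43, 9.85 and 9.31 tags and one 0.723 kb outside it held 4.95, 6.77 and 6.69. The region outside had the widest spread of peak centres of the 20, 132 bp, and low folds of 4.08, 5.58 and 4.40. Near Gnai2, 38.4 kb from Slc38a3, a strong region had 15.1 and 13.5 tags in IP libraries 1 and 2 and no peak in IP library 3. Single peaks lay inside Gnai2, with 4.30 tags in IP library 3, and inside Sema3f, a semaphorin gene, with 3.39 in IP library 2 and 8.26 in IP library 1.

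**Figure D2:**
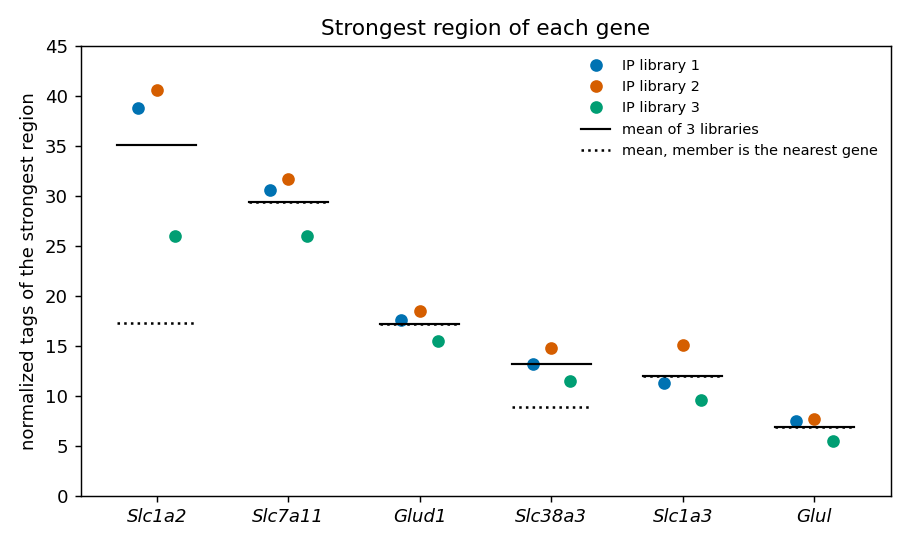
Normalized tags of the strongest region of 3 libraries within 50 kb of each gene, in each IP library (points), with their mean (solid line) and the mean of the strongest region for which the gene is the nearest (dotted line). Slc1a2 and Slc7a11 lie above the other genes in every library, and the dotted line is lower than the solid one for Slc1a2 (17.3 against 35.1) and Slc38a3 (8.86 against 13.2).

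Ordered by the strongest region, Slc1a2 (35.1 ± 7.96 normalized tags) was followed by Slc7a11 (29.4 ± 3.02), Glud1 (17.2 ± 1.54), Slc38a3 (13.2 ± 1.65), Slc1a3 (12.0 ± 2.84) and Glul (6.87 ± 1.2), each as mean and SD over 3 libraries. Slc1a2 and Slc7a11 overlapped in their range over libraries, 26.0 to 40.6 and 26.0 to 31.7, and so did Slc38a3 and Slc1a3, 11.5 to 14.8 and 9.55 to 15.1. The other neighbours in the order did not overlap. With only regions for which the gene is the nearest, the value of Slc1a2 was 17.3 and that of Slc38a3 8.86, and Slc7a11 came first. By the summed tags of all regions of 3 libraries the window of Slc1a2 held 114 ± 15.4 and that of Glud1 47.6 ± 6.88, ahead of Slc7a11 with 35.8 ± 2.83, Slc38a3 with 28.2 ± 2.98, Slc1a3 with 23.4 ± 2.50 and Glul with 13.3 ± 1.69. Slc1a2 held 43.5% of the summed tags of the 6 windows. With only regions for which the gene is the nearest, a count added after seeing the data, its sum was 38.3 ± 4.83, or 22.1% of the total, below that of Glud1.

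Set against all protein-coding genes, 0.439% had at least as many regions of 3 libraries within 50 kb as Slc1a2, 3.93% as many as Glud1, 8.98% as many as Slc38a3 and 21.4% as many as the 3 genes with 2 regions. All 6 had at least 2, as did 21.4% of protein-coding genes. A region inside the gene was found in 5 of the 6, Glul being the exception, and in 14.8% of protein-coding genes. Longer genes have more room for such a region, and this share was not adjusted for length. The spans of the 6 ran from 9.8 kb at Glul to 134 kb at Slc7a11. All 6 were the nearest gene of at least 1 region, against 22.9%. The median number of regions was 2.50 in the 6 genes and 0 over all genes. Long genes have wider windows, and per 100 kb of window the 6 genes held 1.99 regions, against 0.570 over all protein-coding genes, with 0.854 at Slc7a11 as the lowest and 3.01 at Slc1a2 as the highest. A region at least as strong was held by 0.254% of genes for Slc1a2, 0.513% for Slc7a11, 4.38% for Glud1, 9.58% for Slc38a3, 12.0% for Slc1a3 and 32.1% for Glul. The ranks by number and strength count every region in the window, whichever gene is nearest. Of these, 4 of the 7 at Slc1a2 and 1 of the 3 at Slc38a3 lay nearer to Pamr1 or Gnai2, the strongest among them. The strongest for which the gene is nearest held 17.3 normalized tags at Slc1a2 and 8.86 at Slc38a3, whose ranks are not given. These are counts of a list chosen by name with earlier results of these data known, with no test.

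**Figure D3:**
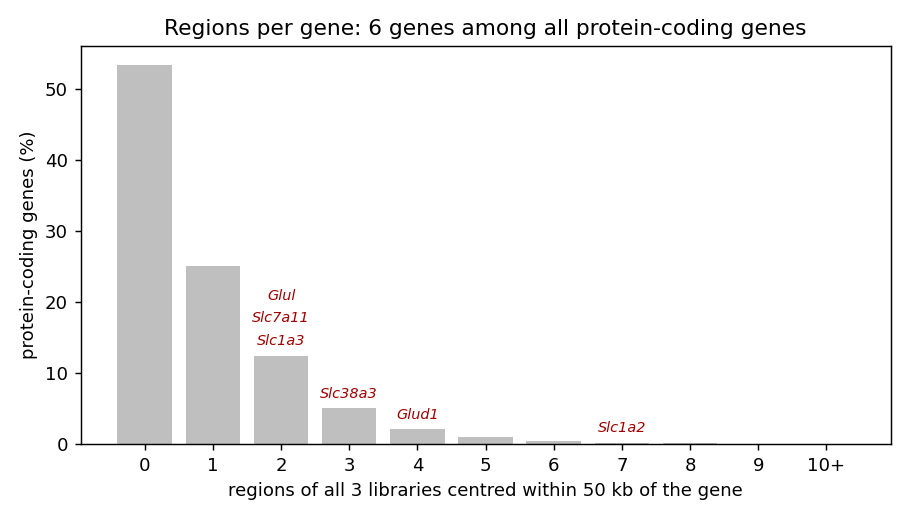
Share of the 21631 protein-coding genes (vertical, in percent) by the number of regions of 3 libraries centred within 50 kb (horizontal), with the 6 genes written above their bar. Slc1a3, Slc7a11 and Glul stand at 2 regions, Slc38a3 at 3, Glud1 at 4 and Slc1a2 at 7, while the highest bar is at 0.

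Among themselves, the 20 regions had a median of 12.0 normalized tags, between 5.17 and 35.1, against the median of 7.63 over all regions of 3 libraries. Of the 20, 15 were above that median and 5 in the strongest 10%, which began at 15.0 tags. IP library 2 was the highest of the libraries at 14 of the 20 regions, beside 42.4% of all regions of 3 libraries, and IP library 3 the lowest at 11, beside 60.1% of all. The enrichment ran from 4.08-fold to 63.9-fold over 0.5 to 5 input tags, with the input at the floor in 2 of 60 values. The 3 peaks of a region shared at least 1 base in all 20, and their centres spread over a median of 38.5 bp.

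The other regions of the 6 windows were found in 2 libraries (8 regions) or in 1 (19 regions). Those of 1 library held 3.39 to 9.08 normalized tags with a median of 5.23, and 9 of the 19 came from IP library 2, 6 from IP library 1 and 4 from IP library 3. Those of 2 libraries held 4.64 to 14.3 on average. Beside Slc1a2, 2 of them lay next to each other inside Pamr1, with 14.5 and 10.3 tags in IP libraries 2 and 3 at the first and 12.1 and 9.79 in IP libraries 1 and 3 at the second, so that all 3 libraries had a peak there without a common region. Of the peaks in the 6 windows, 62.5%, 57.1% and 71.4% in IP libraries 1, 2 and 3 belonged to regions of 3 libraries, against 52.7%, 53.0% and 58.7% of all peaks. Where a library lacks a peak, none passed the authors' filters at this depth.

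**Figure D4:**
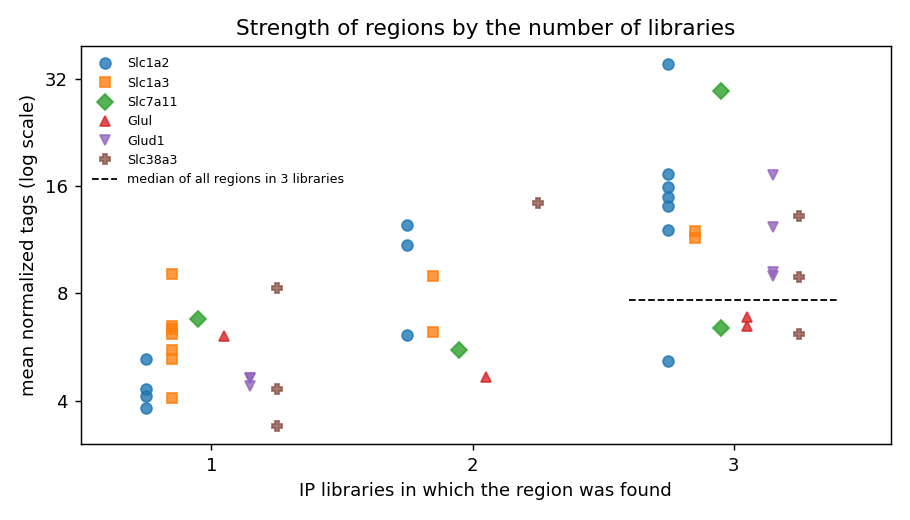
Mean normalized tags of each region in the 6 windows (vertical, log scale) by the number of IP libraries in which it was found (horizontal), with a marker for each gene and the median of all regions of 3 libraries as a dashed line at 7.63. Regions of 1 library reach 9.08 and regions of 3 libraries 35.1, and both regions of Glul found in 3 libraries lie below the dashed line.

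Other genes of glutamate handling were taken as a list of 37 genes, all found in the annotation. Of these, 28 had a region of 3 libraries within 50 kb (75.7%, beside the 46.6% of all genes), with a median of 1 region. The strongest was at Slc25a18, a mitochondrial glutamate carrier, 0.138 kb from the gene, with 30.6, 26.2 and 24.8 normalized tags (mean 27.2 ± 3.03). Next was a region 0.249 kb from Slc38a7, a glutamine transporter, with 19.3, 23.1 and 17.0 tags, which also fell in the window of the aminotransferase gene Got2. Grm5, a metabotropic glutamate receptor, had 20.9, 13.8 and 17.0 tags inside the gene.

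Others with a region included Slc38a1, Gclm, Pcx, Grm3, Gclc, Gss, Oplah, Ggt1, Slc1a4, Gpt2, Slc1a7, Aldh4a1, Slc17a7, Prodh, Slc1a5, Slc38a5, Got1, Slc7a10, Slc3a2, Gpt, Slc25a22, Gls2 and Slc17a6. Slc3a2 encodes the heavy chain that pairs with xCT. No region of all 3 libraries was found for Slc1a1, Slc1a6, Slc17a8, Slc38a2, Slc25a12, Slc25a13, Asns, Aldh18a1 or Ggt7. A region of at least 2 libraries was present for 31 of the 37, beside 58.3% of all protein-coding genes. Counting only regions for which the gene is the nearest, 15 of the 37 had one, beside 22.9% of all protein-coding genes.

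All 6 glutamate genes had a region of 3 libraries, against 4 of 7 genes of GABA handling and 9 of 9 astrocyte potassium and water genes, beside 46.6% of all protein-coding genes. The GABA genes without one were Gad1 and Gad2, which make GABA, and the transporter gene Slc6a13, named after their values were seen. The strongest of the GABA genes were Abat, which breaks GABA down, with 23.1, 23.7 and 20.8 normalized tags, and Slc6a11, a GABA transporter, with 22.3, 19.7 and 15.8 at a region 36.8 kb away. Those of the potassium and water genes were Kcnj10, a potassium channel, with 35.2, 37.5 and 23.4, and Mlc1, a membrane protein of astrocytes, with 32.2, 27.1 and 21.7. The median strongest region was 15.2 normalized tags in the 6 glutamate genes, 18.5 in the 4 GABA genes and 15.7 in the 9 potassium and water genes, beside 8.56 over all genes with a region. None of these differences was tested.

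For each of the 6 genes, the most alike gene on another chromosome was sought among genes with the same number of regions, by the distance of the log2 normalized tags of the strongest region over the 3 libraries. Fat3 was the most alike to Slc1a2 among 41 genes, with 39.4, 27.4 and 24.1 tags and a distance of 0.58. For the others the distance was below 0.1, with Cenpt for Slc1a3, Aopep for Slc7a11, Trpm6 for Glud1 and Src for Slc38a3. Serpinf1 had the same 3 values as Glul, one of 2527 genes compared.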

How the data were processed

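SOX2 ChIP-seq peak lists of 3 IP libraries were used, with the 1 input through the authors' values. Bowtie 1.0.0, HOMER 4.7 and the mm10 build are named in the submitters' processing notes. Peaks of each IP library were called by the authors against the input, per the file headers, with a Poisson p-value of 0.0001, a false discovery rate of 0.001 and 4-fold enrichment over both the input and the 10 kb around the peak. Normalized tags are a signal that the authors scaled to 10000000 tags per library. Tags per peak were deposited as a count for IP library 2 and as a scaled signal for IP libraries 1 and 3. The fold is a ratio of IP over input tags by the authors, who set input below 0.5 tags to 0.5. The authors also deposited a fraction of tags placed as the centre of the peak predicts, not used in the text, and a peak score. The score rests on a cap on tags per bp, 1 in IP libraries 1 and 2 and 2 in IP library 3. At some peaks it exceeds the computed tags, such as 13 against 11 tags at the IP library 2 peak inside Sema3f. Tags of a peak were computed from normalized tags and library totals.

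Overlapping peaks (at least 1 bp) were merged in chains. Gene spans are those of GRCm38.p6. Exons are not used here, nor is any sequence of a region outside the RefSeq promoters. A name missing from the gene table (Pc) was matched through synonyms to Pcx. Poisson intervals (95%) cover counting error only. No test between groups was possible with 3 IP libraries and 1 input. The 6 genes, all lists and the alternatives were chosen with earlier results of these data known. Named were the 6 genes, genes nearer to a region, the other glutamate genes with a region (not all are reported here), the 2 strongest of each comparison list and the most alike genes. The merging was tested on simulated data, where 200 of 200 planted regions were called as planted. Most planted regions had peaks that spread less than those of a typical member region, where the median spread of centres was 38.5 bp. So this checks the code and not how often real peaks merge. Scripts ran under Python 3.11.15 with matplotlib 3.10.9, scipy 1.17.1, pandas 2.3.3 and numpy 2.4.6.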

Additional observations from a re-analysis of the deposited data

How the results depend on the processing

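All 6 genes kept a region under each of the 12 alternatives (stricter peaks, other overlap, other windows, fewer libraries, nearest gene only). The share of all protein-coding genes with one ran from 22.9% to 60.8%. Asking for 2 libraries, widening to 100 kb or leaving a library out could only keep or add regions, as the peaks of each of the 20 shared a base. No gene could lose its regions under those alternatives. The 20 regions became 14 to 28, and 22 to 24 when each library was left out in turn. The strongest region of Slc1a2 was then 32.4 to 39.7 normalized tags, and that of Slc7a11 28.3 to 31.1. With the gene span and 5 kb or 10 kb on each side, the genes held 19.3 or 20.7 peaks per library in place of 31.7. In both windows, and with nearest genes only, the strongest region was 17.3 for Slc1a2 and 8.86 for Slc38a3. With 100 kb, it was 15.1 for Slc1a3 and 24.2 for Glul. Of the other glutamate genes, 14, 16 and 15 of 37 had a region with 5 kb, 10 kb and nearest genes only, beside 23.1%, 26.4% and 22.9% of all genes, alternatives for this list that were chosen after seeing the data. The order of the 6 genes kept 6 places by peak score, 4 by summed tags and 2 by fold over the input, where Slc7a11 came last at 24.9-fold. The 5 kb and 10 kb windows and the nearest-gene rule drop regions by construction, and the 100 kb window adds them. The cause of the other moves was not tested. The median peak held 20 to 22 tags, which limits what a missing peak can show. No paired analysis was possible because the 3 IP libraries share 1 input library.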
